A study of Arabidopsis thaliana with 4 samples.

Results

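Class IV chitinases are small secreted enzymes that cut chitin, the polymer of N-acetylglucosamine in fungal cell walls. In Arabidopsis most of their genes stand in a tandem row on chromosome 2. The 7 genes described here are the 6 genes of that row, from AT2G43570 to AT2G43620, and AT3G54420 (EP3), a class IV chitinase gene on chromosome 3. They were taken by locus, at any signal level. The platform annotation paired 6 of the 7 with a probe set, 1 each, out of 13286 genes so paired and 22746 probe sets on the array. AT3G54420 was paired with none there and is not analysed here. The family was chosen by the log2 signals of these same arrays, because AT2G43620 was already known to be among the largest rises of RECA1-OE over Col-0. The difference between the groups is therefore given for the 6 genes as a description, with no p-value for any of them, and counts of calls among them are not evidence.

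The samples were whole Arabidopsis seedlings of the Col-0 ecotype, 2 weeks old and grown without treatment. The 2 control samples were wild type. The 2 samples called RECA1-OE were T3 transgenic plants in the same ecotype that overexpress RECA1 (AT1G79050), a chloroplast-targeted homologue of the bacterial recombinase RecA. The promoter of the transgene and the number of transgenic lines are not stated in the labels. No probe set was paired with RECA1, so the overexpression was not checked. Each sample was hybridised to 1 Affymetrix array. The labels number the arrays of each group as biological replicates. They do not tell whether plants were raised or harvested separately, so the spread between arrays may be partly technical.

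Chitinases of plants act in several roles. Those released on infection attack fungal walls directly and free chitin fragments, which the receptor kinase CERK1 and its partners sense at the cell surface. Class IV enzymes belong to glycoside hydrolase family 19, together with the basic class I chitinase known as pathogenesis-related protein PR-3. EP3 was first known from carrot, where its homologue supports somatic embryos in culture, so members of the class are also linked to development.

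Within the row, 3 genes were higher in RECA1-OE by 4.08-fold to 14.4-fold, and these were AT2G43620, CHI (AT2G43570) and AT2G43590. AT2G43610 was close to level, and AT2G43580 and AT2G43600 were dim and scattered. The genes that differed were not side by side. They were the first, the third and the last of the row, with level or dim genes between them. All signals below are log2 values of the deposited MAS5 signal, 1 per probe set and array.

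AT2G43620, a chitinase family gene at one end of the row, read 8.40 and 6.23 in Col-0 replicates 1 and 2, and 10.98 and 11.35 in RECA1-OE replicates 1 and 2. The groups did not overlap, and the Col-0 arrays were far apart from each other. On the linear scale these are signals of 338 and 74.8 against 2018 and 2615. The means were 7.31 ± 1.54 in Col-0 and 11.17 ± 0.26 in RECA1-OE (SD, n = 2 each). The difference was 3.85 ± 0.65 on the log2 scale (limma moderated SE), or 14.4-fold. Its size turned on which Col-0 array was used. Leaving out Col-0 replicate 1 gave 30.7-fold, and leaving out Col-0 replicate 2 gave 6.80-fold. The lower RECA1-OE value stood 2.58 above the higher Col-0 value on the log2 scale, so the groups were apart for either Col-0 array. A larger estimated rise was found for 33 of the 22746 probe sets, which describes how the family came to be picked.

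CHI (AT2G43570), annotated as a chitinase and standing at the other end of the row, read 7.95 and 8.37 in Col-0 and 11.25 and 10.79 in RECA1-OE. The arrays of each group lay within 0.46 of each other, and the groups were 2.42 apart at their nearest. The means were 8.16 ± 0.30 and 11.02 ± 0.32 (SD, n = 2 each), a difference of 2.86 ± 0.22 (SE), or 7.24-fold. Leaving out each array in turn gave between 6.18-fold and 8.49-fold. CHI thus had a smaller estimated change than AT2G43620 and a much tighter one.

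AT2G43590, the third gene of the row, read 9.64 and 10.30 in Col-0 and 12.13 and 11.86 in RECA1-OE. It was bright in both groups, with linear signals of 796 and 1263 against 4491 and 3719. The means were 9.97 ± 0.47 and 12.00 ± 0.19 (SD, n = 2 each), a difference of 2.03 ± 0.24 (SE), or 4.08-fold. Without 1 array at a time it was between 3.24-fold and 5.14-fold. The groups did not overlap, and their nearest values were 1.56 apart.

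AT2G43610, the fifth gene, read 10.08 and 10.17 in Col-0 and 10.78 and 10.15 in RECA1-OE. The groups overlapped, since RECA1-OE replicate 2 fell just under Col-0 replicate 2. The difference was 0.34 ± 0.22 (SE), or 1.27-fold, and it came from RECA1-OE replicate 1, without which it was 0.02. Its mean signal was above that of 88.0% of all probe sets, so it was not dim, and its difference stayed within the spread between the RECA1-OE arrays, which was 0.63.

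AT2G43580, the second gene, read 2.07 and 4.62 in Col-0 and 5.26 and 3.81 in RECA1-OE. The values are interleaved and dim, in the lowest 15.5% of probe sets by mean signal. The difference was 1.19 ± 1.03 (SE) and was -0.09 without Col-0 replicate 1. AT2G43600, the fourth gene, read 5.11 and 5.83 in Col-0 and 5.19 and 2.85 in RECA1-OE. Its difference of -1.45 ± 0.86 (SE) came mostly from RECA1-OE replicate 2, without which it was -0.28. For AT2G43580 the arrays of each group lay farther apart, 2.56 in Col-0 and 1.45 in RECA1-OE, than the group means did. For AT2G43600 the RECA1-OE arrays did, at 2.34 apart.

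**Figure D1:**
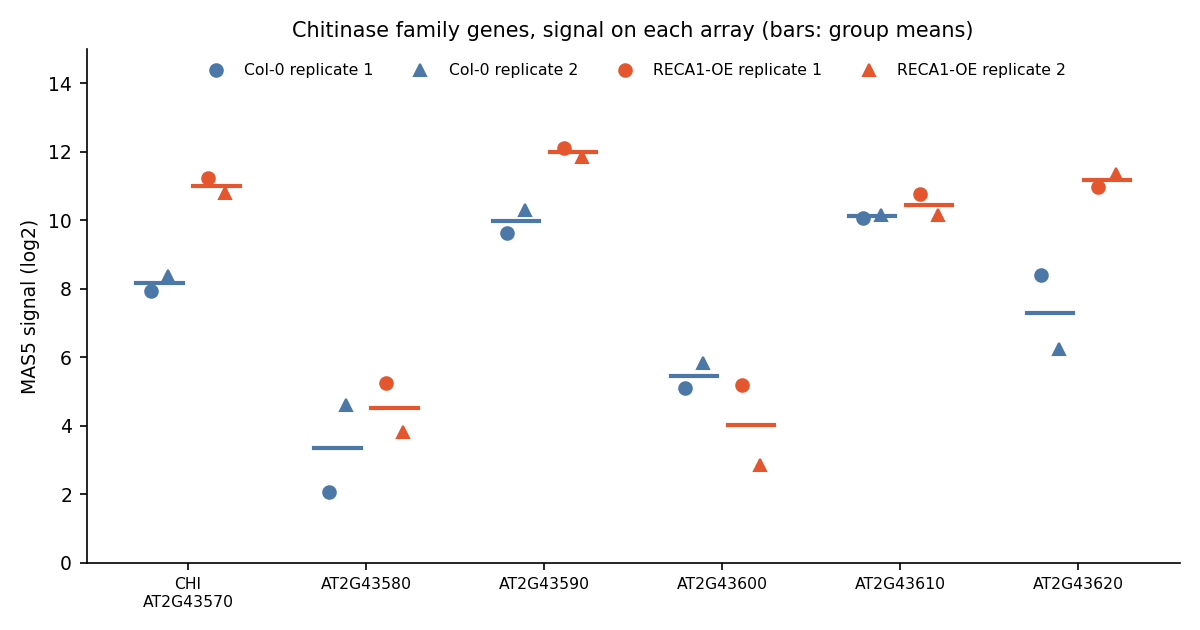
Signal of the 6 measured chitinase genes on each of the 4 arrays (vertical axis, log2 MAS5 signal; circles are replicate 1, triangles replicate 2, bars the group means). For CHI, AT2G43590 and AT2G43620 the groups are apart with RECA1-OE higher, while the other 3 genes overlap between groups.

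In a limma fit over all 22746 probe sets, 3 of the 6 measured genes were called higher in RECA1-OE at an adjusted p under 0.05, and by limma 0 were called lower, with 0 lower at an unadjusted p under 0.05. Over the whole array 7.86% of probe sets were called in either direction, made up of 4.55% called higher and 3.31% called lower. The same 3 genes were the ones whose groups did not overlap. Without overlap were 55.9% of all probe sets, made up of 25.5% higher and 30.4% lower. The median log2 change of the 6 genes was 1.61, against -0.04 over all probe sets. Since the family was proposed from this same contrast, nothing is read from these shares. The 3 calls were present without either Col-0 array. Without either RECA1-OE replicate they became 0, in fits where limma called 0 probe sets over the whole array. Over the array 3872 and 4524 probe sets had an unadjusted p under 0.05 there. The lowest fold of the 3 genes in those fits was 3.71.

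Of the 6 genes, 4 lay in the brightest 60% of probe sets by mean signal over all arrays, and AT2G43580 and AT2G43600 did not. Restricting the fit to those probe sets left the same 3 genes called, where 19.9% of 13648 probe sets were called. The members that pass such a filter include genes that pass partly through a high RECA1-OE level, so that share says nothing about the family.

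**Figure D2:**
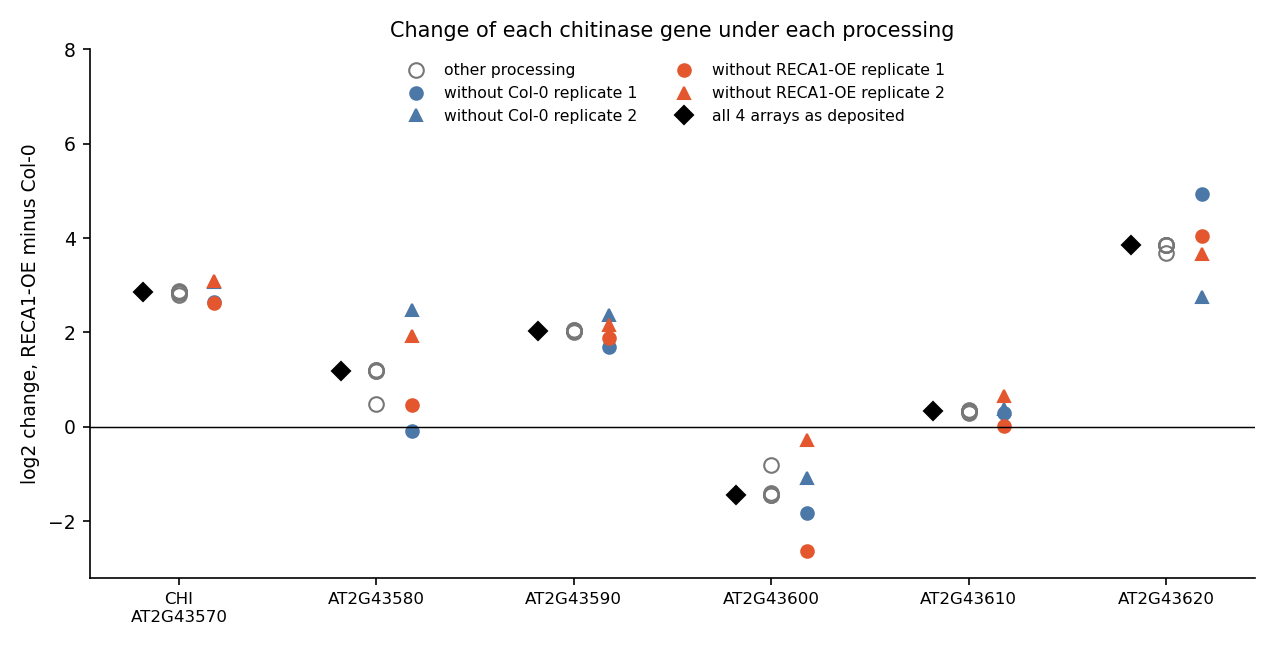
Log2 change of each measured chitinase gene (vertical axis, RECA1-OE minus Col-0) with all 4 arrays as deposited (diamonds), under other processing (open circles) and without 1 array (coloured symbols). CHI, AT2G43590 and AT2G43620 stay at 1.69 or above throughout, while AT2G43580 runs from -0.09 to 2.47.

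The spread between replicates differed from gene to gene. For AT2G43620 it is not independent of the choice of the family, since the size of its rise turned on the Col-0 array used. Between the Col-0 arrays AT2G43620 differed by 2.18 on the log2 scale and AT2G43580 by 2.56, where the median absolute difference over all probe sets was 0.27. Only 4.83% and 3.42% of probe sets differed by more. CHI differed by 0.42 and AT2G43590 by 0.67 between the same arrays, exceeded by 34.5% and 21.5% of probe sets. The direction also varied. AT2G43620 was higher in Col-0 replicate 1, while CHI and AT2G43590 were higher in Col-0 replicate 2. Between the RECA1-OE arrays AT2G43620 differed by 0.37, CHI by 0.46 and AT2G43590 by 0.27, and AT2G43600 by 2.34. The source of the Col-0 spread of AT2G43620 was not tested.

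Genes outside the family were ranked by how near their pattern over the 4 arrays was to that of AT2G43620. Likeness was measured as the Euclidean distance between log2 profiles, each centred on its own mean, over 5906 probe sets with 1 paired gene and at least median signal. The 5 nearest were AT1G26420 at 0.69, AT5G52760 at 0.73, AT1G26410 at 0.82, AT5G52750 at 1.00 and AT3G18250 at 1.09. AT1G26420 and AT1G26410 encode berberine bridge enzyme-like oxidoreductases, and AT5G52760 and AT5G52750 encode proteins with a heavy-metal-associated domain. All 5 were high in both RECA1-OE arrays and lower in Col-0 replicate 2 than in Col-0 replicate 1, as AT2G43620 was. AT1G26420, the nearest, read 6.58 and 5.36 in Col-0 and was 13.8-fold higher in RECA1-OE. Leaving out Col-0 replicate 1 made that 21.0-fold, and leaving out Col-0 replicate 2 made it 9.03-fold. Without RECA1-OE replicates 1 and 2 in turn it was 16.3-fold and 11.6-fold, and its call was lost with every other call on the array. Within the row CHI lay at 2.17 from AT2G43620, AT2G43590 at 2.75 and AT2G43610 at 3.92. The 5 are the nearest by construction, and the distance includes the RECA1-OE rise on which the family was chosen. The signal filter, a mean over the 4 arrays of at least 7.6, favours such genes too. AT1G26420, AT5G52760 and AT1G26410 read under 7.6 on both Col-0 arrays and passed it only through their RECA1-OE level. These distances rest on 4 arrays and describe only them.

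**Figure D3:**
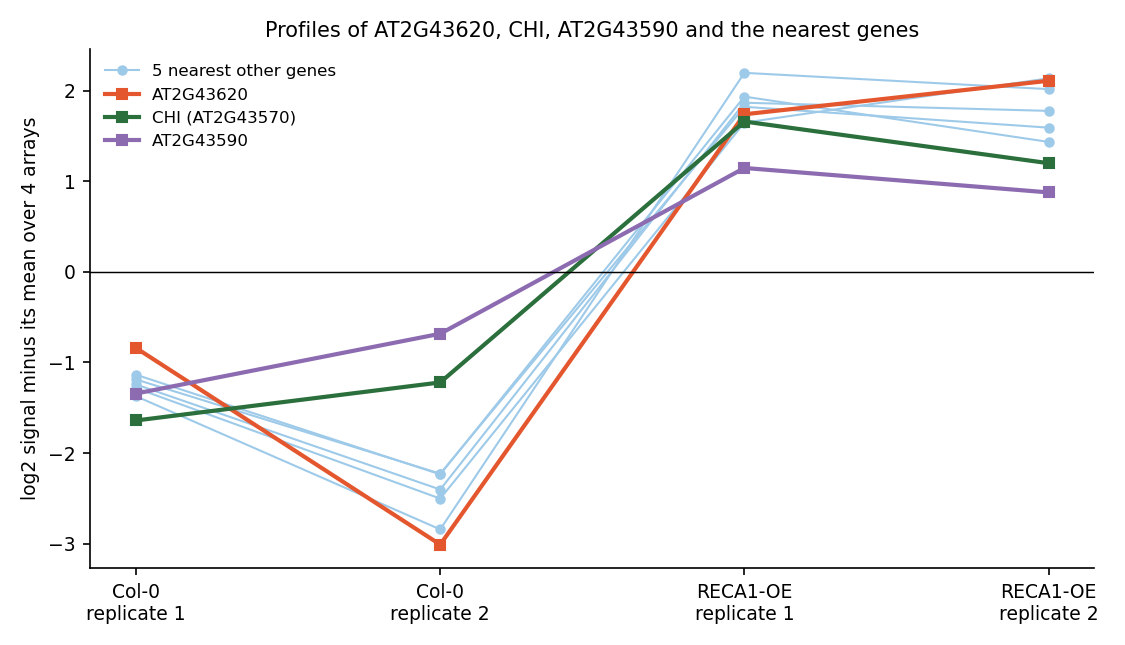
Log2 signal of each gene on each array after subtracting its mean over the 4 arrays (vertical axis) for AT2G43620, CHI, AT2G43590 and the 5 genes nearest to AT2G43620. AT2G43620 and the 5 nearest genes are lowest in Col-0 replicate 2, while CHI and AT2G43590 are lowest in Col-0 replicate 1.

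On either side of the row 8 neighbours were measured here, and a pair of genes next to CHI was called lower in RECA1-OE. In the gene table of the TAIR10.1 assembly the 6 chitinase genes follow each other with 2 non-coding entries between AT2G43610 and AT2G43620, and no other gene. Of the 14 other listed loci from AT2G43500 to AT2G43690, 8 were measured. AT2G43535 was not on that list and is not analysed here. By limma 0 of the 8 were called higher, with 1 higher at an unadjusted p under 0.05, and 2 were called lower. Over all probe sets 4.55% were called higher and 3.31% lower, so 0 higher among 8 genes does not set them apart from the array. AT2G43560, next to CHI and encoding an FKBP-type peptidyl-prolyl isomerase, read 11.61 and 11.89 in Col-0 and 11.04 and 10.84 in RECA1-OE. It fell by 0.81 ± 0.15 (SE, log2), at a limma adjusted p of 0.036, and lost the call without Col-0 replicate 2 and without either RECA1-OE array. With the replicate number as a block its limma adjusted p was 0.057. AT2G43550, a knottin-fold protein of the scorpion toxin-like superfamily one gene further out, read 10.60 and 11.47 in Col-0 and 9.05 and 9.13 in RECA1-OE. It fell by 1.95 ± 0.28 (SE, log2), or 3.85-fold, at a limma adjusted p of 0.019. Its call too was lost without either RECA1-OE array, where its differences were -1.90 and -1.99. On the other side AT2G43630 differed by -0.38 ± 0.16 (SE) and did not pass, with a limma adjusted p of 0.22. AT2G43540 differed by 0.43 ± 0.15 (SE), also without passing, with a limma adjusted p of 0.15. AT2G43660, which was dim, differed by 0.88 ± 0.42 (SE) with no overlap, and did not pass at a limma adjusted p of 0.26. Without overlap 3 of the 8 were higher and 3 lower in RECA1-OE, beside 25.5% and 30.4% of all probe sets. The 8 neighbours had a median log2 change of -0.06.

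**Figure D4:**
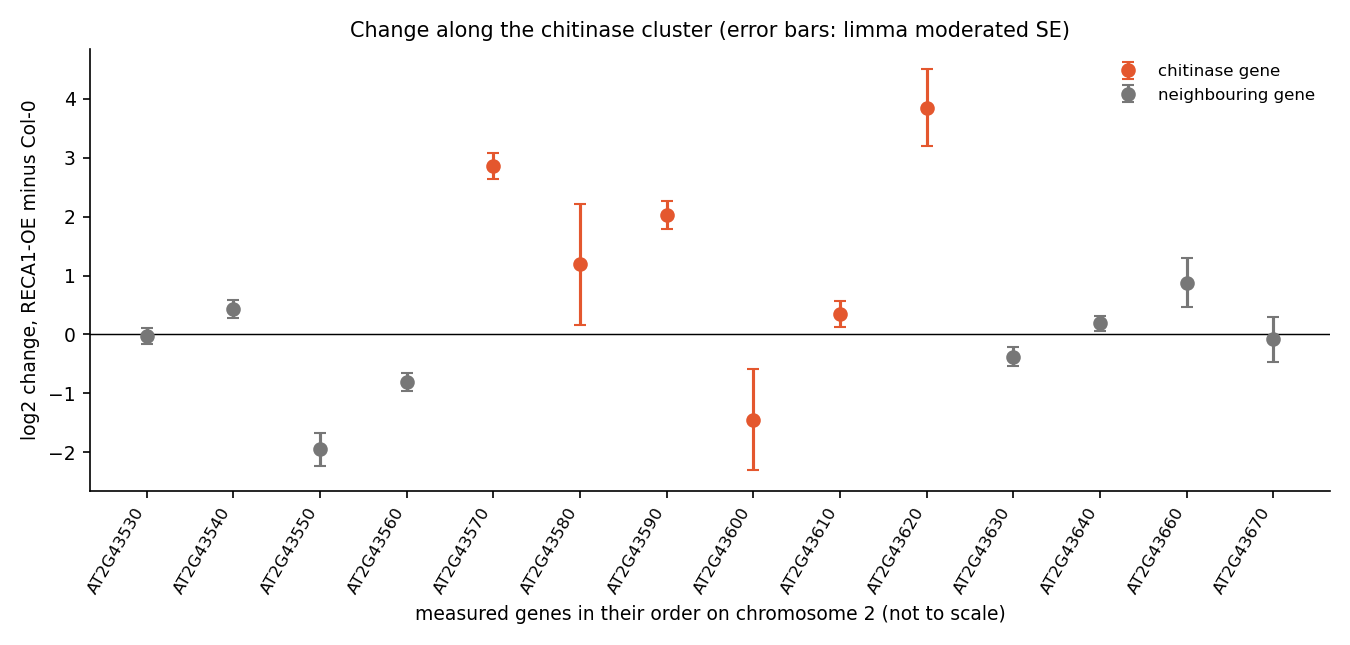
Log2 change between RECA1-OE and Col-0 (vertical axis, limma moderated SE as bars) for the measured genes in their order along chromosome 2, with chitinase genes in red and neighbours in grey. CHI, AT2G43590 and AT2G43620 stand above 2, while AT2G43550 and AT2G43560 next to CHI stand below 0.

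Chitinase genes outside the row were, where called, higher in RECA1-OE. Of 17 listed genes of families 18 and 19, 9 were measured. By limma 3 were called higher and 0 lower, with 1 lower at an unadjusted p under 0.05, and 6 did not pass. Over all probe sets 4.55% were called higher and 3.31% lower. The list was chosen with earlier results of these data known, so its count is a description. Their median log2 change was 0.69. AT4G01700, a family 19 chitinase gene on chromosome 4, read 9.01 and 7.93 in Col-0 and 10.29 and 10.12 in RECA1-OE. It rose by 1.73 ± 0.34 (SE), or 3.31-fold, at a limma adjusted p of 0.039. AT1G02360, also of family 19, read 7.89 and 8.13 in Col-0 and 9.58 and 9.36 in RECA1-OE. It rose by 1.46 ± 0.17 (SE), or 2.76-fold, at a limma adjusted p of 0.011. AT3G47540, a further chitinase family gene, rose by only 0.69 ± 0.15 (SE), with a limma adjusted p of 0.048. This last call was lost after quantile normalization, at 0.057, with the replicate number as a block, at 0.072, and without either Col-0 array. It was also lost without either RECA1-OE array, as every call on the array was. AT1G56680, also of the family 19 group, read 6.66 and 6.60 in Col-0 and 5.61 and 3.06 in RECA1-OE, and its difference of -2.30 ± 0.84 (SE) did not pass, with a limma adjusted p of 0.16.

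Among family 18 enzymes, which differ in fold from class IV, ChiC (AT4G19810) read 10.64 and 9.66 in Col-0 and 11.21 and 11.28 in RECA1-OE. Its difference of 1.10 ± 0.31 (SE) did not pass, with a limma adjusted p of 0.088. It passed with the dimmest 40% of probe sets left out, at 0.036, but not with the replicate number as a block, at 0.073. Without Col-0 replicate 1 the difference was 1.58, and without Col-0 replicate 2 it was 0.61. Of the other family 18 genes on chromosome 4, AT4G19720 and AT4G19730 were dim and overlapped between the groups. AT4G19740, also dim, read 3.55 and 1.41 in Col-0 and 4.84 and 5.05 in RECA1-OE, with no overlap, and its difference of 2.47 ± 0.87 (SE) did not pass, with a limma adjusted p of 0.15. AT4G19820 differed by -0.24 ± 0.30 (SE), lower in RECA1-OE with no overlap, and did not pass either, with a limma adjusted p of 0.67. Like the calls in the row, those of AT4G01700 and AT1G02360 were lost without either RECA1-OE array, as every call on the array was. Without RECA1-OE replicates 1 and 2 in turn, AT4G01700 still rose by 1.64 and 1.81, and AT1G02360 by 1.35 and 1.58.

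**Figure D5:**
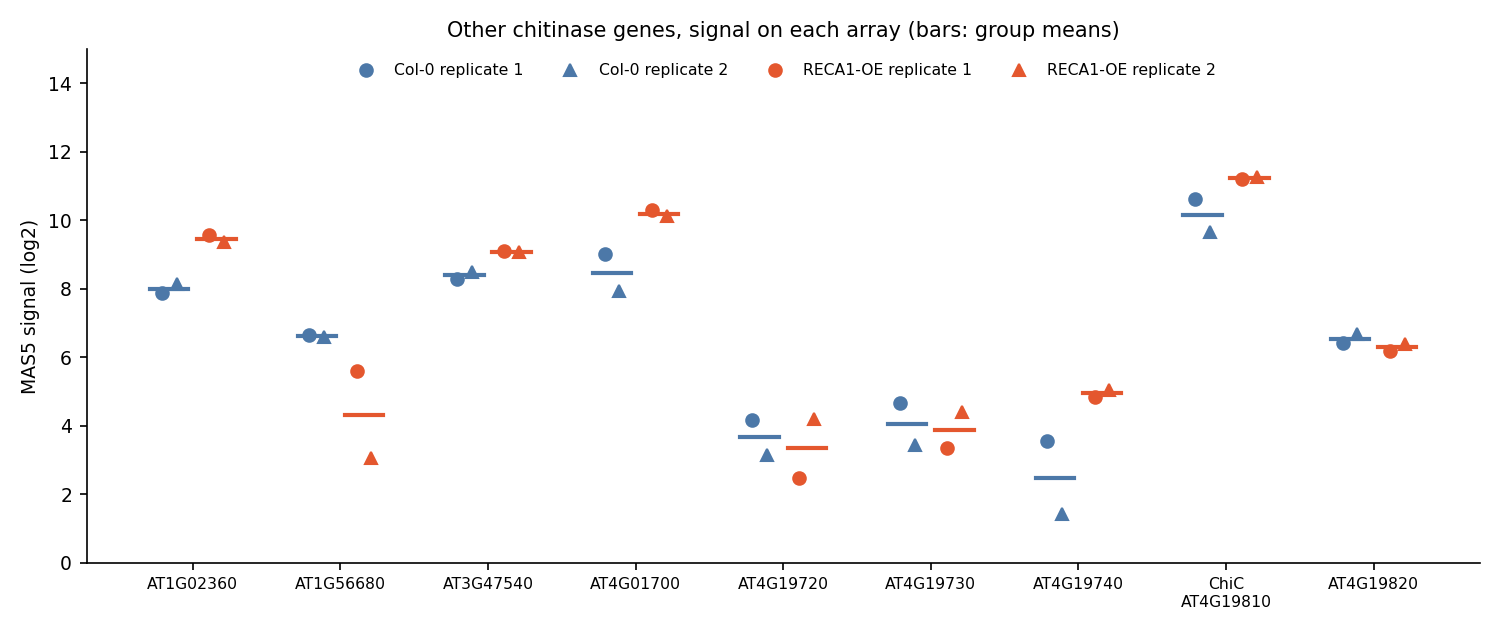
Signal of 9 chitinase genes outside the row on each of the 4 arrays (vertical axis, log2 MAS5 signal; circles are replicate 1, triangles replicate 2, bars the group means). AT1G02360, AT3G47540 and AT4G01700 are higher in RECA1-OE with no overlap and passed, while AT1G56680 is lower with no overlap and did not pass.

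Of the other defence proteins that are classed with chitinases as pathogenesis-related, 4 of 11 listed genes were measured. By limma 0 of the 4 were called, beside 7.86% of all probe sets, with 2 higher at an unadjusted p under 0.05. AT4G16260, a glycosyl hydrolase gene of the beta-1,3-glucanase family, whose enzymes act on fungal walls beside chitinases, differed by 0.82 ± 0.20 (SE), with a limma adjusted p of 0.066. It passed with the dimmest 40% of probe sets left out, at 0.029, and with the replicate number as a block, at 0.046. The plant defensin gene PDF1.2 (AT5G44420) read 9.07 and 6.92 in Col-0 and 10.33 and 8.88 in RECA1-OE. PDF1.2b (AT2G26020) read 9.26 and 6.75 in Col-0 and 9.93 and 9.76 in RECA1-OE. Both were low in Col-0 replicate 2, as AT2G43620 was, and neither passed, with limma adjusted p values of 0.26 and 0.19. Their size turned on which Col-0 array was used. PDF1.2 differed by 2.68 without Col-0 replicate 1 and by 0.53 without Col-0 replicate 2, and PDF1.2b by 3.10 and 0.59. With the replicate number as a block PDF1.2 passed, at a limma adjusted p of 0.022, and PDF1.2b did not, at 0.11. Neither passed with the dimmest 40% of probe sets left out, at 0.14 and 0.094. The probe set of PDF1.2b is of a type that can also bind related sequences, so the 2 defensins may not be measured apart. The thaumatin family gene AT1G75800 differed by 0.01 ± 0.14 (SE).

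Genes of chitin perception and its signalling were sparsely covered, with 3 of 18 listed genes measured, and CERK1 was not among them. BIK1 (AT2G39660), a cytoplasmic kinase that relays signals from pattern receptors, read 9.38 and 9.10 in Col-0 and 10.50 and 10.47 in RECA1-OE. It rose by 1.25 ± 0.14 (SE), or 2.37-fold, at a limma adjusted p of 0.011. WRKY22 (AT4G01250), a transcription factor of pattern-triggered immunity, read 6.63 and 7.19 in Col-0 and 8.41 and 8.29 in RECA1-OE, and rose by 1.44 ± 0.25 (SE), or 2.71-fold, at a limma adjusted p of 0.029. Both calls were lost without either RECA1-OE array. AT5G18610, a receptor-like cytoplasmic kinase gene downstream of CERK1, was dim on all 4 arrays, at log2 signals of 2.27 or less, and differed by -0.68 ± 0.93 (SE).

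Of hormone and senescence lists, 1 of 14 salicylic acid genes, 1 of 11 jasmonate and ethylene genes and 2 of 7 senescence genes were measured. SAG101, a lipase-like partner of EDS1 in salicylic acid defence, differed by 0.86 ± 0.41 (SE) and EIN3, a transcription factor of ethylene signalling, by 0.46 ± 0.15 (SE). Neither passed, with limma adjusted p values of 0.26 and 0.12. The senescence-associated sugar transporter gene SAG29 differed by -0.33 ± 0.75 (SE), and the sign turned without Col-0 replicate 2. WRKY53, which encodes a transcription factor that promotes leaf senescence, rose by 3.34 ± 0.31 (SE), with a limma adjusted p of 0.0084. Its call was lost without either RECA1-OE array, as every call on the array was. Without RECA1-OE replicates 1 and 2 in turn, WRKY53 still rose by 3.31 and 3.37.

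The seedlings hold roots and green tissue together, and a change in the proportion of an organ cannot be told apart from a change of transcript per cell in such samples. Of 10 root markers 3 were measured, with summed linear signals of 12136 to 18247 in Col-0 and 9298 to 13121 in RECA1-OE. Of 8 green shoot markers 2 were measured, with sums of 22545 to 23013 and 19219 to 24316. Both ranges overlapped between the groups, but nearly all of the root sum is PYK10 and nearly all of the green shoot sum is RCA. The other green shoot marker, FMA, differed by -0.30 ± 0.23 on the log2 scale (SE), with overlap. The means of all 3 root markers were lower in RECA1-OE. The root hair expansin genes EXPA7 and EXPA18, at -0.21 ± 0.26 and -0.66 ± 0.30 on the log2 scale (SE), were lower with no overlap. By limma 0 of the 5 markers were called, beside 7.86% of all probe sets, with 0 at an unadjusted p under 0.05. PYK10, a beta-glucosidase of roots, and RCA, the Rubisco activase of green tissue, were bright on every array, with lowest readings of 13.15 and 14.22. The part of organ proportions in the chitinase values was not tested further.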

How the data were processed

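The values deposited by the authors are log2 signals, 1 for each probe set on each array. The submitters' processing notes name MAS5 and give no version. MAS5 scales each array by 1 factor. The log2 scale was read from the values: back on a linear scale, the mean trimmed by 2% at each end lay between 495.3 and 495.8 on the 4 arrays. No detection calls or probe sequences were used here, so cross-hybridisation between the tandem chitinase copies was not tested.

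Linear values below 1, between 151 and 246 per array, were set to 1. All 22746 probe sets were fitted with limma 3.58.1 in R 4.3.3 (lmFit; eBayes with trend; two-sided tests; Benjamini-Hochberg over all of them), with 2 residual degrees of freedom and 3.94 added by moderation. A probe set at an adjusted p under 0.05 is called. Precision is limited by there being 4 arrays. In the annotation 13513 probe sets had 1 gene, 503 had several and 8730 had none, and 13436 matched a TAIR10.1 gene by Entrez ID. Coordinates are left out because the values name no genome build.

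Members and lists were chosen with earlier results of these data known. Genes named are all members, up to 4 per list (called ones by size of change, then by smallest unadjusted p), and the 5 nearest to AT2G43620. AT1G56680, AT2G43660, AT4G19720, AT4G19730, AT4G19740, AT4G19820 and the organ markers were named after their values were seen. On simulated data with 22746 probe sets in 2 and 2 arrays, 38% of 100 changes of 1 and 65% of 100 changes of 2 on the log2 scale were recovered, with 7 false calls. The simulated noise was normal, with an SD set by mean signal alone, so recovery in the real data may differ. Alternatives were a filter on the dimmest 40%, quantile normalization, median centring, 16 added before log2, no trend, the replicate number as a block, and each array left out. Same-numbered arrays did not deviate together (r = 0.00335 over probe sets).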

Additional observations from a re-analysis of the deposited data

How the results depend on the processing

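Over the whole array, 2716 probe sets were called with the dimmest 40% left out in place of 1787, of which 1360 were lower in place of 752, from fewer probe sets tested. Without the mean-variance trend limma called 0 over the array, 0 of the 6 chitinase genes and 0 of the 9 other chitinases, while 4555, 3 and 4 of these had an unadjusted p under 0.05; why was not tested. Without 1 array at a time the count of calls ran from 0 to 1697, with 0 to 1134 higher and 0 to 563 lower, and the value of 0 came from leaving out either RECA1-OE array, where 3872 and 4524 probe sets had an unadjusted p under 0.05. Calls ran from 0 to 3 among the 6 chitinase genes and from 0 to 3 among the other chitinases. The chitinase genes without overlap ran from 4 to 5 there, beside 76.4% to 79.2% of all probe sets, since fewer arrays make overlap rarer. With the replicate number as a block 1440 probe sets and 3 chitinase genes were called. The numbers share no known batch or day, so the block is a description. For single genes, AT2G43580 ran from -0.09 to 2.47 without 1 array, AT1G75800 from -0.10 to 0.12 and SAG29 (AT5G13170) from -1.53 to 0.87, and AT1G75800 was -0.03 after quantile normalization. CHI, AT2G43590 and AT2G43620 stayed higher in RECA1-OE in all 10 alternatives and were called in 7 of them. They lost the call without the trend and without either RECA1-OE array. Since the family was chosen from this same contrast on these same arrays, these directions and calls are a description and not evidence. Dim signals limit AT2G43580 and AT2G43600.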
